A study of Mus musculus with 2 samples.

Results

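Mpo, Elane, Prtn3, Ctsg and Ms4a3, the 5 primary granule genes described here, were taken by name from the 33696 genes of the feature list, and all 5 had counts. They were followed in single-cell RNA libraries of live-sorted lung cells from adult mice on the C57BL6/J background. One library was labelled GFI1 KO (a germline loss of the transcription factor GFI1) and one GFI1 WT, each labelled as from 1 mouse. No other treatment was applied to either. The study's methods name 2 samples per genotype, of which 1 each was analysed here, so the genotype, the mouse and the library cannot be told apart and no test, p-value or spread between mice is given. Counts are unique molecular identifiers (UMIs), each standing for 1 captured RNA molecule.

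Primary, or azurophil, granules are made while neutrophil precursors pass through the promyelocyte stage, and precursors of monocytes make part of the same set. Mpo encodes myeloperoxidase, which forms hypochlorous acid from hydrogen peroxide. Elane (neutrophil elastase), Prtn3 (proteinase 3) and Ctsg (cathepsin G) encode serine proteases that are activated before storage and released when the granule fuses. Ms4a3 encodes a membrane protein that marks granulocyte and monocyte progenitors. The RNAs are known to be lost as neutrophils mature, while the proteins stay in the granules. GFI1 is a zinc finger repressor that neutrophil development requires.

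Prtn3 (ENSMUSG00000057729) and Elane (ENSMUSG00000020125) lie next to each other on chromosome 10 on the same strand, Mpo (ENSMUSG00000009350) lies on chromosome 11, Ctsg (ENSMUSG00000040314) on chromosome 14 and Ms4a3 (ENSMUSG00000024681) on chromosome 19. The promoters of Prtn3 and Elane, the pair with the most UMIs, are shown from 250 bases before to 50 bases after the start given by RefSeq (build GRCm38.p6, plus strand, not the build of the counts). Capitals mark GGAAGT, the letters of a site for ETS factors such as PU.1, and AACGG, the letters of a MYB site, searched on both strands, and the 2 motifs did not overlap.
Prtn3, chr10:79879417-79879716: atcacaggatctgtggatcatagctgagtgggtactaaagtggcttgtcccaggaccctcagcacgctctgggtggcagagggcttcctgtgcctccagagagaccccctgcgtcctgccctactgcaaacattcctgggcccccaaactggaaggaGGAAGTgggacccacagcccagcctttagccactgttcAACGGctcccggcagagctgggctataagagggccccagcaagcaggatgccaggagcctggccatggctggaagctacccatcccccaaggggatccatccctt
Elane, chr10:79886062-79886361: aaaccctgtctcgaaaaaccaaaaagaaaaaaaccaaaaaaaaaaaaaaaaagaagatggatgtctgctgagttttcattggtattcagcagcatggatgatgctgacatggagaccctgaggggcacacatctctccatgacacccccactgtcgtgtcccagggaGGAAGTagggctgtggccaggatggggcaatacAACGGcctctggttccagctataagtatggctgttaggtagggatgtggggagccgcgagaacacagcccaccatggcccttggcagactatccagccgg
GGAAGT stood in the promoters of 5 of 5 members and in 23.8% of the 32851 promoters of this length in the RefSeq table. It began 93 bases before the start in Prtn3, 83 in Elane, 222 in Mpo and 205 in Ctsg, and in Ms4a3 it was present on both strands. AACGG was in the promoters of Prtn3 and Elane, 55 and 50 bases before the start, and in 17.4% of all promoters. The letters TTGCNNAA, a CEBP site, were in 1 of 5 members (Ms4a3) and 10.8% of all promoters. AATCNC, a longer form that holds the core bound by GFI1, was in 0 of 5 and in 33.2%. The shorter core alone was not searched for, so a member promoter may still hold it. The motifs were chosen after the sequences had been read, and a match of letters is not a measured site.

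The KO-labelled library held 10495 cells after filtering, with a median of 11076 UMIs per cell, and the WT-labelled library 19342 cells with a median of 6217. Levels are given as CPM, the UMIs of a gene per 1000000 UMIs of the class of cells, with exact Poisson 95% intervals, and shares of cells with exact Clopper-Pearson 95% intervals. All intervals cover counting error only, not the spread between cells or mice. Gfi1 itself, the targeted gene, was at 3.60 CPM (3.22 to 4.0, 340 UMIs) under the KO label and 3.46 CPM (3.16 to 3.79, 470 UMIs) under the WT label over all cells. Within the classes given here it was not lower under the KO label either: the ratio was 2.34 (1.73 to 3.17) in T-like, 2.02 (1.32 to 3.05) in B-like, 1.63 (1.13 to 2.29) in NK-like, 16.4 (7.33 to 35.9) in ILC2-like and 7.71 (3.52 to 19.2) in alveolar macrophage-like cells, and 1.04 (0.900 to 1.196) over all cells, whose classes differed in size between the labels. The ILC2-like ratio rests on 13 UMIs in 9 KO-labelled cells, against 17 UMIs in 153 WT-labelled cells. Whether the counted 3′ end lies outside the deleted part is not given in the sources used here, and the libraries are called by their labels throughout. The libraries shared 74 cell barcodes, whose cells held 80 and 6 UMIs of the 5 genes.

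Each of the 5 genes was higher under the KO label. Prtn3 had 10630 UMIs against 133, or 112 CPM (110 to 115) against 0.980 CPM (0.821 to 1.16), a ratio of 115 (96.7 to 137). Elane had 1028 UMIs, or 10.9 CPM (10.2 to 11.6), against 0 of 19342 WT-labelled cells. A count of 0 allows a share of cells of up to 0.0155% by the floor of 3 counts, and the exact upper limit is 0.0191%. Set against a floor of 3 UMIs over the WT-labelled library, Elane was 492-fold higher, and the exact lower limit of its ratio was 399. Ctsg had 355 UMIs against 4, a ratio of 127 (49.3 to 470).

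Mpo and Ms4a3 differed less. Mpo had 270 UMIs against 49, a ratio of 7.91 (5.82 to 10.9), and Ms4a3 92 against 18, a ratio of 7.34 (4.39 to 12.9). Both rested in part on a few cells: without the 10 cells with the most member UMIs, a step added after the data had been seen, Mpo had 98 UMIs against 49 and Ms4a3 43 against 18, log2 ratios of 1.52 (1.02 to 2.05) and 1.78 (0.957 to 2.66). The 5 of 5 members at least 2-fold higher with an interval above 1 stand beside 3.17% of the 16318 genes with at least 30 UMIs, while 25.0% of those genes were at least 2-fold lower. The members were chosen with earlier results of these data known, so the 2 shares are set side by side and are no test. With trimmed-mean (TMM) scaling the calls over all genes were 1033 higher and 3082 lower in place of 518 and 4079. The classes of cells differed in size between the labels, and over all cells a larger class and more RNA per cell cannot be told apart.

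With the main clustering, most of the member UMIs under the KO label lay in monocyte-like cells, 10364 of them in 5164 classical and nonclassical cells. How many lay there depended on the clustering. At resolutions 0.5 and 1.2 the numbers were 10363 and 10360. With the members among the variable genes 2272 UMIs lay in 2696 cells so named, and with each library clustered on its own 5360 in 3621 cells. Cells were clustered with the 5 genes withheld, and clusters were named from marker genes. Classical monocyte-like cells (Ly6c2, Ccr2, Vcan, F13a1) were 4394 cells, or 41.9%, of the KO-labelled library and 254 cells, or 1.31%, of the WT-labelled one. They held 10217 of the 12375 member UMIs under the KO label (82.6%) and 45 of 204 under the WT label (22.1%). A cycling subcluster led by S100a8 and S100a9, with 59 KO-labelled and 3 WT-labelled cells, held a further 12.1% of the KO-labelled UMIs. It was picked after the data had been seen, as the subcluster of the cycling cell with the most member UMIs. Alveolar macrophage-like cells, 22.1% of the KO-labelled cells, held 0.0970% of them.

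**Figure D1:**
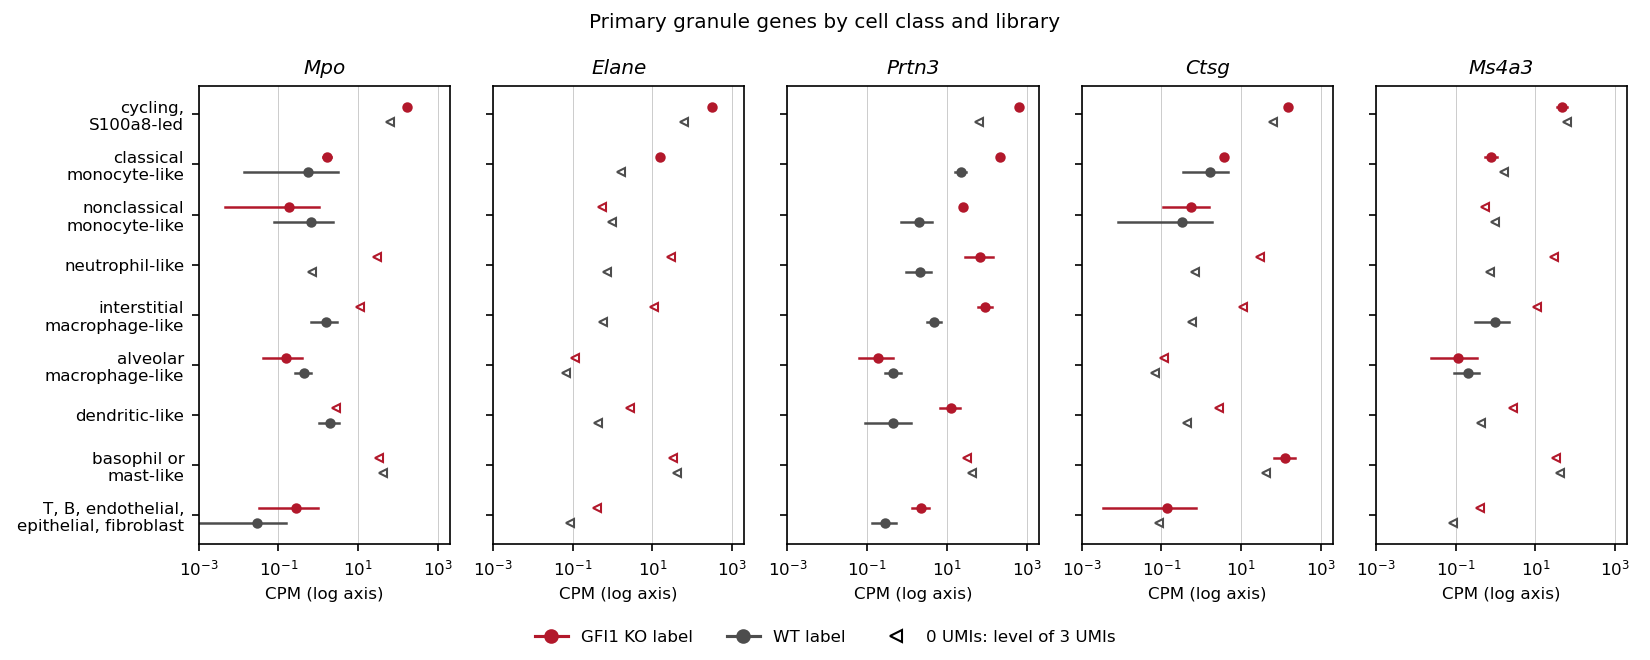
Level of each gene (CPM, log axis) in 9 classes of cells under the GFI1 KO label (red) and the WT label (grey). Lines are exact Poisson 95% intervals and open triangles mark the level that 3 UMIs would give where 0 were counted. Prtn3 under the KO label runs from 659 CPM in the cycling subcluster to 0.192 CPM in alveolar macrophage-like cells.

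Classical monocyte-like cells allow the labels to be compared within a class, though its subclusters were shared unevenly between them, as given below. In this class Prtn3 was at 214 CPM (209 to 218, 9289 UMIs) under the KO label and 22.5 CPM (16.2 to 30.6, 41 UMIs) under the WT label. The ratio was 9.48 (6.98 to 13.2), and 21 of 11170 genes with a UMI under both labels had a higher one. A KO-labelled cell had a median of 1 Prtn3 UMI and at most 42, and a WT-labelled cell a median of 0 and at most 3. At least 1 Prtn3 UMI was seen in 67.4% of the KO-labelled cells (65.96 to 68.8) and 13.4% of the WT-labelled ones (9.45 to 18.2). With each cell thinned to 1500 UMIs the shares were 18.9% (17.7 to 20.1) and 3.94% (1.90 to 7.12), with 4 and 0 shallower cells left out. The size of the ratio depended on how cells were clustered: over classical and nonclassical monocyte-like cells together the log2 ratio of the summed members was 4.26, and 3.26 with the members among the variable genes, 3.67 at a coarser resolution and 6.76 with each library clustered on its own.

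Both labels thus showed Prtn3 in this class above its share in cells that should lack it. In T-like, B-like, endothelial-like, epithelial-like and fibroblast-like cells together, 0.564% of KO-labelled cells (0.282 to 1.01) and 0.115% of WT-labelled cells (0.0525 to 0.218) had a Prtn3 UMI. When the cells called doublets were removed and the rest clustered and named anew, 4 KO-labelled and 9 WT-labelled Prtn3 UMIs lay in these types. Cells could change class in that step, so the UMIs that lay in doublets are not known from it. The median depths were 4330 and 4924.5 UMIs, against 11913.5 and 8741 in the classical monocyte-like cells. After thinning these shares were 0.161% and 0.0131%.

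Elane had 656 UMIs in KO-labelled classical monocyte-like cells, or 15.1 CPM (14.0 to 16.3), against 0 under the WT label. It was 9.15-fold higher against the floor of 3 UMIs in that class, and the exact lower limit of its ratio was 7.42. Of the KO-labelled cells 8.12% (7.33 to 8.97) held it. With 254 WT-labelled cells, a count of 0 allows a share of cells with the UMI of up to 1.18% by the floor of 3 counts and 1.44% by the exact upper limit.

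The other 3 genes were low in this class under both labels. Ctsg was at 3.80 CPM (165 UMIs) against 1.65 CPM (3 UMIs), a ratio of 2.30 (0.774 to 11.3). Mpo was at 1.68 CPM (73 UMIs) against 0.550 CPM (1 UMI), a ratio of 3.05 (0.531 to 122). Ms4a3 had 34 UMIs against 0, where the level under the KO label, 0.782 CPM, was under the floor of the WT label and no fold is given. So 2 of 5 members, Prtn3 and Elane, were called higher, beside 3.87% of the 11438 genes with at least 30 UMIs in this class, and 0 were called lower, beside 4.23%. These counts are no test either, given how the members were chosen. The median ratio of the 5 was 9.48 with the 2 genes without WT-labelled UMIs taken as higher, and 3.05 with them set against the floor.

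The make-up of the member UMIs in classical monocyte-like cells was led by Prtn3 under both labels, 90.9% (90.3 to 91.5) of the KO-labelled and 91.1% (78.8 to 97.5) of the WT-labelled UMIs. These are shares of 3′ UMIs and not protein amounts. In the cycling subcluster Prtn3 made up 49.2% (46.7 to 51.8), Elane 23.4% (21.3 to 25.6), Mpo 12.5% (10.9 to 14.3), Ctsg 11.3% (9.78 to 13.1) and Ms4a3 3.47% (2.60 to 4.52). One cell had a large part in this: without it Prtn3 made up 60.9% (57.9 to 63.8), Elane 19.4% (17.1 to 21.9), Mpo 6.72% (5.31 to 8.36), Ctsg 10.5% (8.78 to 12.5) and Ms4a3 2.45% (1.62 to 3.55). The 59 KO-labelled cells of this subcluster, 0.562% of the library, held 69.6% of its Mpo, 56.5% of its Ms4a3, 47.9% of its Ctsg and 34.1% of its Elane UMIs, but 6.94% of its Prtn3 UMIs. The 58 cells without that cell held 27.4% of the library's Mpo, 29.3% of its Ms4a3, 32.7% of its Ctsg and 20.8% of its Elane UMIs.

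**Figure D2:**
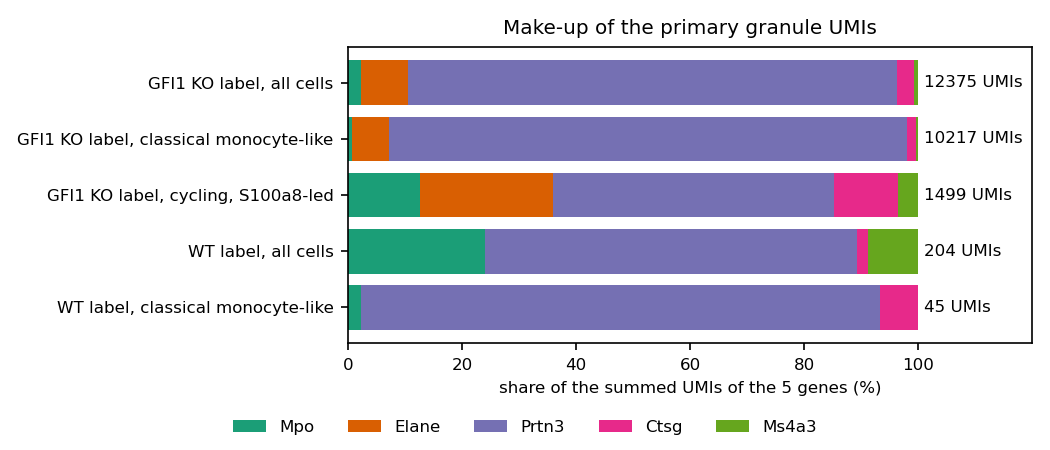
Share of each gene in the summed UMIs of the 5 genes (%), by label and class, with the number of UMIs at the right. Prtn3 takes 90.9% in KO-labelled classical monocyte-like cells and 49.2% in the KO-labelled cycling subcluster, and Elane is absent from both WT-labelled bars.

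In that cycling subcluster the KO-labelled levels were 659 CPM (613 to 709) for Prtn3, 314 CPM (282 to 348) for Elane, 168 CPM (145 to 194) for Mpo, 152 CPM (130 to 176) for Ctsg and 46.5 CPM (34.7 to 60.9) for Ms4a3. Prtn3 was 3.09-fold (2.86 to 3.33) and Elane 20.8-fold (18.2 to 23.7) its level in KO-labelled classical monocyte-like cells, and Mpo 100.03-fold (75.9 to 133). A few cells carried these levels: 45 of the 59 cells had no Mpo, 33 no Elane and 8 no Prtn3 UMI. Without the cell with the most member UMIs, a step added after the data had been seen, Mpo was at 67.6 CPM (40.3-fold its classical monocyte-like level, 28.7 to 56.4), Elane at 196 CPM (12.96-fold, 11.1 to 15.1), Prtn3 at 612 CPM (2.87-fold, 2.65 to 3.10), Ctsg at 106.0 CPM and Ms4a3 at 24.7 CPM. Without the next cell as well, Mpo was at 40.3 CPM (24.0-fold, 16.1 to 35.5), Elane at 162 CPM (10.8-fold, 9.04 to 12.7), Prtn3 at 528 CPM (2.47-fold, 2.27 to 2.69), Ctsg at 53.5 CPM and Ms4a3 at 14.1 CPM. The 3 WT-labelled cells of the subcluster had 0 UMIs of any member, and 3 UMIs there would be 62.8 CPM, so that no difference could be seen for Ms4a3. Of the 59 KO-labelled cells 45 had no Mpo, 47 no Ctsg and 33 no Elane UMI, so 3 cells are too few to compare the labels for these genes either. The other cycling subclusters had 1 member UMI in 212 KO-labelled cells and 4 in 401 WT-labelled cells. The S100a8-led subcluster was picked by the member UMIs of 1 of its cells, so this contrast is no finding. The same choice bears on its folds over classical monocyte-like cells.

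Single cells showed how uneven the 5 genes were. One KO-labelled cell held 114 of the 270 Mpo UMIs (42.2%), and the 10 highest cells of each gene held 68.5% of Mpo, 58.7% of Ms4a3, 49.9% of Ctsg, 32.1% of Elane and 4.69% of Prtn3. Under the KO label 732 cells (6.97%) held at least 5 member UMIs, against 5 WT-labelled cells (0.0258%). At least 10, the number set for a positive cell, were held by 167 cells (1.59%, 1.36 to 1.85) against 0 of 19342 (exact upper limit 0.0191%). At least 20 were held by 45 cells and at least 50 by 8, all under the KO label. Just inside the limit 26 KO-labelled cells had 10 UMIs and just outside it 47 had 9.

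Of the 167 positive cells, 140 were classical monocyte-like, 20 were in the cycling subcluster, 5 in unnamed clusters (all 5 called doublets), 1 was nonclassical monocyte-like and 1 interstitial macrophage-like. They held 6337 CPM of the summed classical monocyte markers, including Ly6c2 in 98.2% and Csf1r in 94.6% of cells. All 8 neutrophil markers were detected, led by Il1r2, G0s2 and Csf3r. They summed to 727 CPM, against 701 CPM in all KO-labelled classical monocyte-like cells and 25378 CPM in WT-labelled neutrophil-like cells. Of the positive cells 81.4% held Csf3r, 74.85% Il1r2, 51.5% Hdc, 47.9% G0s2 and 13.2% Cxcr2. In all KO-labelled classical monocyte-like cells these shares were 75.6%, 61.8%, 38.5%, 28.5% and 6.30%. In WT-labelled neutrophil-like cells they were 98.3%, 98.7%, 99.0%, 92.0% and 87.1%. Ly6g, Retnlg and Stfa2l1 were at 1.53, 0.764 and 0.382 CPM in the positive cells. In WT-labelled neutrophil-like cells 8.04% held Ly6g, 80.6% Retnlg and 33.2% Stfa2l1. The antibody tag for Ly6G had a median of 1 count in the positive cells and 243 in WT-labelled neutrophil-like cells, and the tag for CD11b 640 and 965. The immature granulocyte markers, which include Lcn2, Mmp8, Fcnb and Cebpe, summed to 2102 CPM in the positive cells, 940 CPM in all KO-labelled and 97.8 CPM in WT-labelled classical monocyte-like cells and 1076 CPM in WT-labelled neutrophil-like cells. Of the positive cells 91.6% held Lcn2, 94.0% Mmp8, 46.7% Fcnb and 32.3% Cebpe, while of the same 8 markers Itgb2l and Ngp were at 0 and Camp and Ltf had 1 UMI each. The progenitor markers summed to 160 CPM, against 81.1 CPM in all KO-labelled and 107 CPM in WT-labelled classical monocyte-like cells. Part of that sum came from few cells. Cpa3 was in 0.599%, Kit in 1.80%, Sox4 in 2.99% and Myb in 3.59% of the positive cells. Cdk6 was in 44.9%, Flt3 in 26.3% and Cd34 in 7.19% of them. The part of these markers in the member levels was not tested.

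**Figure D3:**
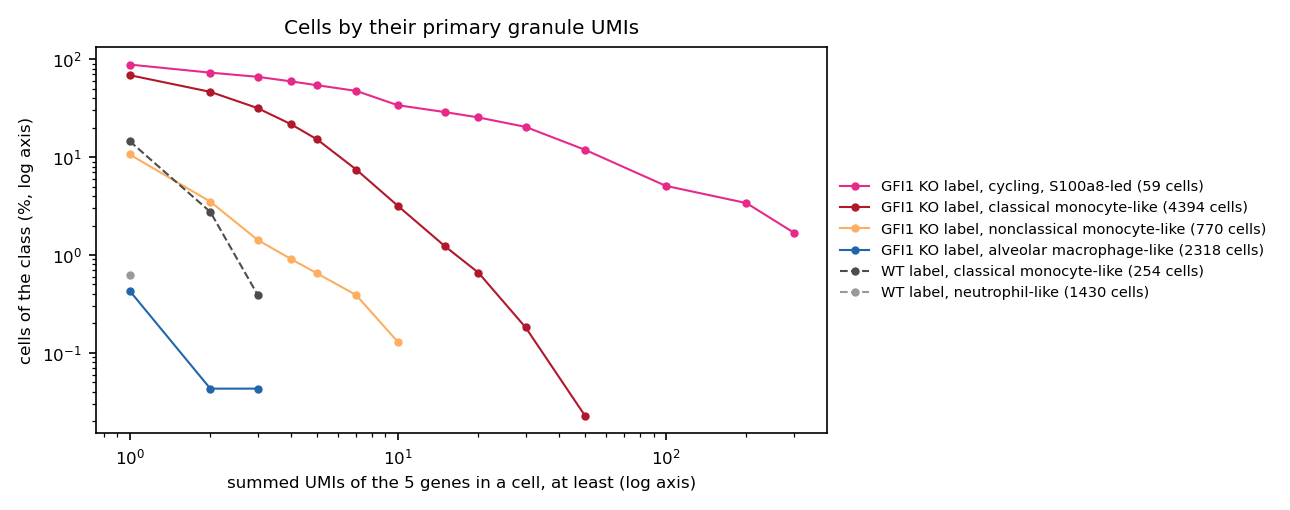
Share of cells of a class (%, log axis) that held at least the number of summed member UMIs on the horizontal axis (log axis). No WT-labelled classical monocyte-like cell passed 3 UMIs, while 33.9% of the KO-labelled cycling subcluster and 3.19% of the KO-labelled classical monocyte-like cells reached 10.

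The 2 cells with the most member UMIs differed in their other genes. The highest, in the cycling subcluster, had 114 Mpo, 137 Elane, 68 Prtn3, 54 Ctsg and 25 Ms4a3 UMIs. It also had 58 UMIs of Cebpe, a transcription factor of granulocyte precursors, and 7 of Prss57, another azurophil granule protease, but 0 of S100a8, Ly6c2, F13a1 and Csf1r. The next had 107 Prtn3, 59 Ctsg, 41 Elane, 31 Mpo and 12 Ms4a3 UMIs together with 79 Ly6c2, 38 F13a1 and 9 Csf1r UMIs, and 1 Cebpe UMI. Another cycling cell stood apart with 28 Ctsg, 26 Prtn3 and 4 Mpo UMIs but 0 Elane UMIs, and carried 5 UMIs of Kit and 10 of Cd34, both genes of early progenitors, and 153 counts of the CD117 tag. Each pattern is that of 1 cell.

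Members were often seen in the same cells. Of the 393 KO-labelled cells with Elane 89.6% also had Prtn3, as did 91.5% of the 82 with Mpo, 86.7% of the 165 with Ctsg and 87.5% of the 48 with Ms4a3, where 31.1% of all KO-labelled cells had a Prtn3 UMI. Of the Elane cells 357 were classical monocyte-like, a class in which 67.4% of KO-labelled cells had a Prtn3 UMI. In the cycling subcluster 51 of 59 cells had one. The part of class and depth in this sharing was not tested. All 5 genes were seen in 9 KO-labelled cells, 7 of them in the cycling subcluster and 2 classical monocyte-like. Under the WT label 139 cells had 1 member, 4 cells had 2 and none had more.

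Prtn3 and Elane varied within the classical monocyte-like cells. The larger of its clusters was divided again with the 5 genes withheld, a step added after the data had been seen. Under the KO label Prtn3 ran from 427 CPM (373 to 486) in the 50 cells led by the proliferation genes Stmn1 and Ccnb2, and 304 CPM (293 to 317) in the 695 cells led by S100a9 and S100a8, to 137 CPM (128 to 147) in the 624 cells led by the MHC class II genes H2-Eb1 and H2-Aa, 127 CPM (118 to 136) in the 565 cells led by Eno3 and Cd300e and 106 CPM (92.4 to 122) in the 313 cells led by the interferon response genes Oasl2 and Ifi213. Elane covered a wider range, from 81.2 CPM (58.8 to 109) in the proliferating cells and 36.1 CPM (32.2 to 40.4) in those led by S100a9 to 1.74 CPM (0.834 to 3.20) in those led by MHC class II genes.

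The WT-labelled cells of this cluster were spread unevenly over the same subclusters, with 137 of 214 in the interferon-led one. There Prtn3 was at 106 CPM under the KO label and 22.6 CPM (14.1 to 34.1, 22 UMIs) under the WT label, a ratio of 4.71 (3.03 to 7.68). In the subcluster led by Cxcl10 and Mir155hg, with 934 KO-labelled and 48 WT-labelled cells, the ratio was 8.96 (4.34 to 22.3). The other 6 subclusters had at most 12 WT-labelled cells each. The smaller cluster of the class, led by the interferon response genes Ifit1bl1 and Ifit3, had 67 KO-labelled and 40 WT-labelled cells. The ratio for the whole class was 9.48. The part that this unequal spread has in it, and in the ratios of other genes in the class, was not tested.

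**Figure D4:**
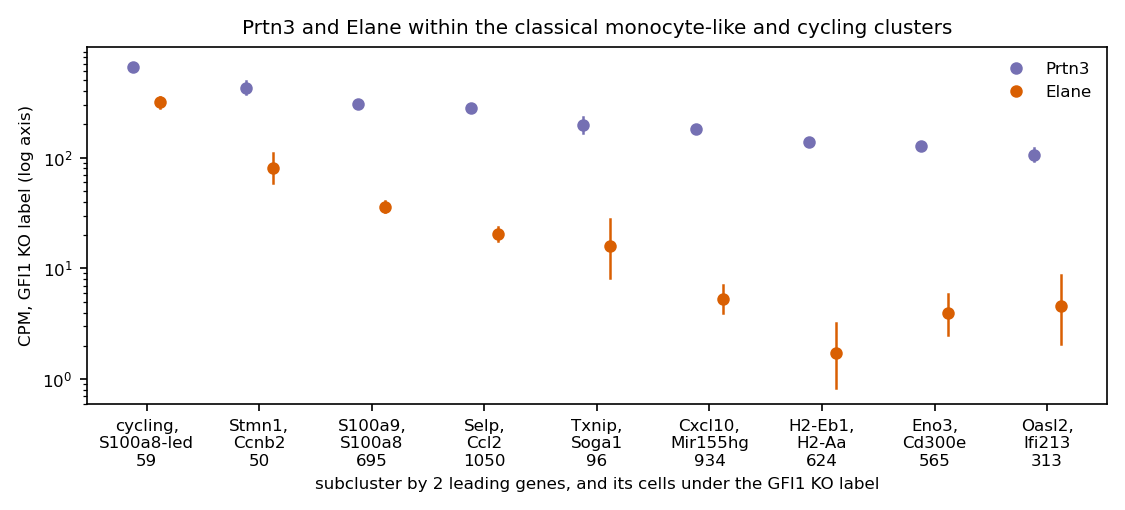
Prtn3 and Elane (CPM under the GFI1 KO label, log axis) in the 8 subclusters of the larger classical monocyte-like cluster and in the S100a8-led cycling subcluster, ordered by Prtn3. Points are levels, lines exact Poisson 95% intervals and the numbers below the names are cells. Prtn3 falls from 659 to 106 CPM along the axis and Elane from 314 to between 1.74 and 5.35 CPM in the 4 subclusters at the right.

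Genes that went with Prtn3 were sought within the KO-labelled classical monocyte-like cells alone, so that the labels played no part. Groups were formed after each cell was thinned to 5000 UMIs, while the ratios use the counts before thinning. The 322 cells with at least 3 Prtn3 UMIs were compared with the 2356 cells with 0, at median depths of 14177.5 and 11433.5 UMIs. A further 1618 cells lay between the groups and 98 were left out. Before thinning the cells with 0 held 1879 Prtn3 UMIs (83.2 CPM against 699 CPM), so they were lower in Prtn3 and not without it. Prtn3 chose the groups, and its own ratio is no finding. Of the other members, Mpo was 15.04-fold (7.68 to 31.2), Elane 11.8-fold (9.53 to 14.8) and Ctsg 3.78-fold (2.39 to 5.89) higher in the Prtn3-high cells, while Ms4a3 had 13 and 10 UMIs, too few for the minimum of 30. They stand beside 0.969% of 10730 genes at least 2-fold higher and 1.04% at least 2-fold lower.

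S100a9 (3.52-fold, 3.46 to 3.58) and S100a8 (2.96-fold, 2.92 to 3.01), the calprotectin subunits, were higher in the Prtn3-high cells. Of the secondary and tertiary granule genes 2 of 6 measured were higher, Lcn2 (2.44-fold) and Fcnb (2.04-fold), and 1 was called lower, Ngp, with 0 UMIs against 42. Ngp was seen in only 0.114% of all KO-labelled classical monocyte-like cells, so its call rests on very few cells. Of the progenitor genes 1 of 4 was higher, Cd34 (2.64-fold), with Flt3 at 1.14, Cdk6 at 1.04 and Sox4 at 0.873. Of the processing genes 1 of 5 was higher, the cystatin Cst7 (2.48-fold), and of the other primary granule genes 0 of 5. Of the cell cycle genes 2 of 5 measured were called higher, Pclaf (4.92-fold) and Ccnb2 (2.23-fold), with Mki67 at 1.55 (1.07 to 2.19). The MHC class II genes Cd74 (ratio 0.424, 0.401 to 0.449) and H2-Ab1 (0.372, 0.331 to 0.417) were lower, as were the interferon-induced genes Cxcl10 (0.292) and Ifit1 (0.159), and Ace (0.276), a gene of nonclassical monocytes. None of the 8 measured myeloid transcription factors was called, with Cebpe at 1.37 (1.07 to 1.73) and Klf4 at 0.647 (0.595 to 0.703). Counts of cells of 1 library are not replicates of a state, and these ratios carry counting error only.

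Other granule genes gave a divided picture between the labels in classical monocyte-like cells. Of the listed other primary granule genes 0 of 6 measured were called. Prss57 had 46 UMIs against 0, and its 1.06 CPM under the KO label was under the WT-label floor of 1.65 CPM. Its counts were too few to be called. Lyz2, encoding lysozyme, had a ratio of 1.01 (1.00 to 1.02), Calr, encoding the chaperone calreticulin, 1.19 (1.10 to 1.28), Ctsd, encoding cathepsin D, 1.89 (1.69 to 2.11), and Gusb, encoding the lysosomal beta-glucuronidase, 1.48 (1.29 to 1.71). Among the genes for processing, packing and inhibition, 1 of 5 was called: Serpinb1a, an inhibitor of elastase, proteinase 3 and cathepsin G, was 3.07-fold higher (2.05 to 4.80, 1759 against 24 UMIs). Ctsc, whose product activates the serine proteases, had a ratio of 1.33 (1.26 to 1.40), the inhibitor Slpi 1.83 (1.69 to 1.98), and Srgn, the proteoglycan that packs them, 0.963 (0.936 to 0.991).

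Of the genes of secondary and tertiary granules, which form later, 4 of 8 measured were called higher and 1 lower. Lcn2 (lipocalin 2) had 24491 UMIs against 10, or 563 CPM against 5.50 CPM, a ratio of 102 (55.7 to 214). Fcnb (ficolin B) was 7.04-fold (3.22 to 19.2), Mmp8 (neutrophil collagenase) 3.88-fold (3.32 to 4.58) and Chil3 3.03-fold (2.92 to 3.16) higher, while Cybb, the NADPH oxidase subunit, had a ratio of 0.714 (0.690 to 0.739). Mmp9 (gelatinase) was lower, with 56 UMIs against 8 and a ratio of 0.293 (0.139 to 0.712). Ltf (lactoferrin), Camp (cathelicidin) and Ngp, the other well-known genes of this set, stayed near 0, at 0.966, 0.0460 and 1.01 CPM under the KO label, and Itgb2l had 0 UMIs. The median ratio over the 8 was 3.46 (2.40 with Ngp set against the floor), over the 5 processing genes 1.83 and over the 6 other primary granule genes 1.33 (1.10 with Prss57 at the floor), beside a median log2 ratio of 0.06 over the 11170 genes with a UMI under both labels.

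Among the myeloid transcription factors 1 of 8 measured was called higher, Cebpe, at 18.3 CPM against 2.75 CPM (795 and 5 UMIs), a ratio of 6.65 (2.84 to 20.5). Klf4, a factor of monocyte differentiation, lay at the limit, with a ratio of 0.499 (0.466 to 0.536), and was no longer called lower with TMM scaling, where it was 0.512. Cebpb had a ratio of 0.978 (0.953 to 1.00), Spi1 (PU.1) 1.21 (1.15 to 1.28) and Runx1 0.685 (0.654 to 0.717). The median over the 8 was 1.02. Of the progenitor genes 0 of 4 measured were called, and Kit had 3 UMIs in 4394 cells and 2 in 254. Of the cell cycle genes 1 of 5 was called, Pclaf, with 199 UMIs against 1 and a ratio of 8.33 (1.48 to 331), while Mki67 had a ratio of 0.980 (0.576 to 1.81).

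**Figure D5:**
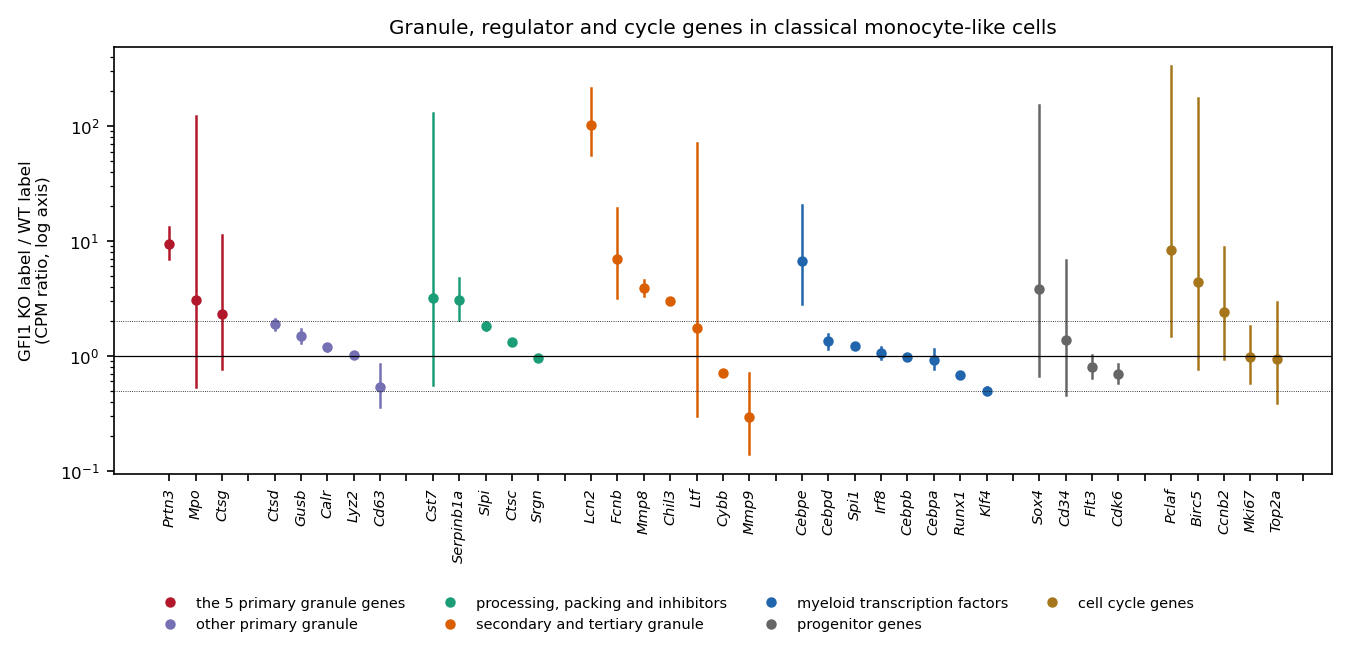
Ratio of the GFI1 KO-labelled to the WT-labelled level (log axis) in classical monocyte-like cells for genes with at least 30 UMIs and at least 1 WT-labelled UMI, grouped by list. Lines are exact 95% intervals and dotted lines mark ratios of 2 and 0.5. Lcn2 stands at 102 and Prtn3 at 9.48, while the other primary granule genes lie between 0.541 and 1.89.

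In nonclassical monocyte-like cells, 770 under the KO label and 519 under the WT label, Prtn3 was the member with counts to compare. It was at 26.0 CPM (21.9 to 30.6, 143 UMIs) against 1.96 CPM (0.719 to 4.26, 6 UMIs), a ratio of 13.3 (5.95 to 36.8), and in 10.5% against 1.16% of cells. Elane and Ms4a3 had 0 UMIs under both labels, Mpo 1 and 2, and Ctsg 3 and 1.

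Neutrophil-like cells held few member UMIs. The WT-labelled library had 1430 of them, in which Prtn3 was at 2.12 CPM (0.967 to 4.02, 9 UMIs in 9 cells) and the other 4 genes had 0 UMIs, with a floor of 0.705 CPM. The KO-labelled library had 8, with 7 Prtn3 UMIs in 4 cells (69.9 CPM, 28.1 to 144) and 0 of the other 4 genes. The Prtn3 ratio was 33.05 (10.5 to 99.7) and rests on these 8 cells. The same 8 cells were rich in secondary granule RNAs that the WT-labelled neutrophil-like cells had little of, with Ngp at 7511 against 40.2 CPM, Camp at 2537 against 23.5 CPM and Ltf at 1448 against 21.2 CPM. They carried a median of 11 Ly6G tag counts against 243.

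Macrophages differed by type. In alveolar macrophage-like cells, 2318 and 3704 by label, all 5 genes were at or below 0.448 CPM. Their sum was lower under the KO label, at 0.461 CPM (0.238 to 0.805, 12 UMIs) against 1.08 CPM (0.793 to 1.43, 48 UMIs), a ratio of 0.428 (0.207 to 0.819). In interstitial macrophage-like cells, 26 and 447 by label, Prtn3 was at 93.3 CPM (60.4 to 138) against 4.79 CPM (3.10 to 7.07), with 25 UMIs each, a ratio of 19.5 (10.7 to 35.3). The KO-labelled value came from 3 cells, 1 of which held 16 UMIs. Over both macrophage types the summed ratio was 0.815 (0.539 to 1.21), a log2 ratio of -0.30, and where the libraries were clustered separately it was -1.69 (-2.62 to -0.86), with its interval below 0. Prtn3 alone over both types had a log2 ratio of 0.336 (-0.381 to 1.03), and -1.56 (-2.97 to -0.385) with separate clustering. In dendritic-like cells, 114 and 576 by label, Prtn3 had 14 UMIs against 3, a ratio of 28.8 (8.03 to 156).

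Classes with at least 3 Prtn3 UMIs under the KO label were put in order, and those with fewer were left out. The cycling subcluster had been picked by its member UMIs. The cycling subcluster, classical monocyte-like cells and interstitial macrophage-like cells each differed from the next beyond counting error, at 659, 214 and 93.3 CPM, except that the last did not differ from the unnamed clusters (76.9 CPM) nor these from neutrophil-like cells (69.9 CPM). Nonclassical monocyte-like cells (26.0 CPM), dendritic-like cells (12.7 CPM), T-like cells (3.98 CPM, 14 UMIs) and alveolar macrophage-like cells (0.192 CPM) followed, each apart from the next beyond counting error. The T-like UMIs lay in 8 cells, with 6 UMIs in 1 of them. With the cells called doublets removed and the rest clustered anew, 4 KO-labelled Prtn3 UMIs lay in T-like, B-like, endothelial-like, epithelial-like and fibroblast-like cells together. Under the WT label classical monocyte-like cells (22.5 CPM) and interstitial macrophage-like cells (4.79 CPM) led, and from neutrophil-like cells (2.12 CPM) downward no neighbours differed.

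Some members had UMIs outside the monocyte classes. Under the WT label 40 of the 49 Mpo UMIs (81.6%) were in 17 alveolar macrophage-like, interstitial macrophage-like or dendritic-like cells, with up to 7 in 1 cell, and 9 of the 18 Ms4a3 UMIs were in 9 alveolar macrophage-like cells. Under the KO label 12 Ctsg UMIs were in 4 of 19 basophil or mast-like cells, with 8 in 1 of them and 0 UMIs of the other 4 genes. That is 130 CPM (67.0 to 226), a level not apart from the 152 CPM of the cycling subcluster (ratio 1.17 of the latter to the former, 0.654 to 2.31), and the 15 WT-labelled basophil or mast-like cells had 0.

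The genes most like the members in their pattern were ranked by the correlation of log2(CPM + 1) with the summed members over 34 clusters of at least 50 cells, both libraries pooled, a description without a test in which clusters share libraries. The nearest of 14487 genes were Fcnb (r = 0.919), F13a1 (0.893), which encodes coagulation factor XIII A, Saa3 (0.885), Adora2b (0.834), Dmkn (0.834), Cebpe (0.833), Nxpe5 (0.832), Sap30 (0.821), Clec4a1 (0.817) and Wfdc18 (0.816). Prtn3 made up 85.9% of the KO-labelled and 65.2% of the WT-labelled UMIs of the sum, so the ranking mainly follows Prtn3.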

How the data were processed

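Lung cells were measured in 1 GFI1 KO-labelled and 1 WT-labelled 10x Genomics 3′ library. The authors deposited raw UMI counts per gene and antibody tag in called cells, made with Cell Ranger 9.0.1 on GRCm39 per the submitters' processing notes. Total gene counts were 116825535 and 162599284. Removal of free RNA is not given in the sources used here.

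Cells were kept at 500 UMIs and 200 genes or more with at most 20% of UMIs from mitochondrial genes, and 9535 ribosomal, mitochondrial and Gm genes were excluded, as in the study's methods. Clusters came from 2000 variable genes without the 5 members (seurat_v3 method, loess span 0.3), 50 components, 15 neighbours and Leiden resolution 0.8 in scanpy 1.11.5, Python 3.11.15 and R 4.3.3. Doublets were called by Scrublet (345 and 1147 cells) and kept. A cluster was named when at least 3 markers of a type were raised 1.5-fold in at least 5% of its cells, and left unnamed where markers of another type, doublets or cell cycle genes led. These limits were set after seeing the data. UMIs were summed per class and label and divided by the UMIs of kept genes. Ratios have exact conditional binomial intervals. A gene was called at a ratio of at least 2 or at most 0.5 with its interval on the same side of 1 and at least 30 UMIs. Alternatives were TMM scaling (edgeR 4.0.16), all-gene CPM, other resolutions, members among the variable genes, separate clustering, doublets removed, no cell filter, other limits and thinning. Scripts were tested on simulated data. The members and gene lists were chosen with earlier results of these data known. Of each list the up to 4 genes with most UMIs are named, with the 10 genes most alike in pattern and the locus neighbours. All other genes named, including those of the Prtn3 split, were chosen after their values were seen. One gene of the list of other primary granule genes is not reported here and was left out of its counts and median.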

Additional observations from a re-analysis of the deposited data

How the results depend on the processing

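No paired analysis was possible because there was 1 library per genotype. Values are log2 ratios of the summed members, KO-labelled over WT-labelled, and a move means a value outside the counting interval. Over all cells the value was 6.44 and moved to 6.81 with TMM scaling, which shifted every gene by 0.36. In monocyte-like cells it was 4.26, with 3.67 at resolution 0.5, 3.26 with the members among the variable genes and 6.76 with each library clustered on its own, where 3 WT-labelled UMIs remained. In macrophage-like cells it was -0.30, and -1.69 with separate clustering. In the 5 background types it was 3.10, with 6.59 with separate clustering (261 KO-labelled UMIs in place of 20). It was 1.92 with doublets removed and the other cells clustered anew (7 UMIs). For separate clustering the cells named differed, and no KO-labelled neutrophil-like and no WT-labelled classical monocyte-like cluster arose, so neutrophil-like cells have no value there and the monocyte-like value compares different kinds of monocyte. The difference in the share of positive cells was 1.59 percentage points, and 6.95 at 5 UMIs, 0.429 at 20 UMIs and 0.409 after thinning to 1500 UMIs with at least 3. Of 38 alternatives to these results 28 stayed within the interval, 10 moved and 0 changed direction. Single genes are not in that count, and some changed direction with separate clustering. Prtn3 in macrophage-like cells went from 0.336 (-0.381 to 1.03) to -1.56 (-2.97 to -0.385). Mpo in monocyte-like cells went from 1.30 (-0.305 to 3.61) to -0.517 (-2.53 to 2.61). Without the 10 cells with most member UMIs, a setting chosen once the data had been seen, the values were 6.30 over all cells and 4.25 in monocyte-like cells. Elane has no ratio, since the WT-labelled library held 0 UMIs. Over all cells TMM scaling turned the ratios of 6 of the listed genes, Cebpb, Ctsc, Cybb, Prss57, Slpi and Spi1, into higher calls. Levels of 1 to 3 UMIs, as for Mpo and Ctsg in WT-labelled classical monocyte-like cells, bound no ratio closely.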

Other observations

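The 3 protein-coding genes on each side of every member in the RefSeq gene table gave 24 neighbours. In classical monocyte-like cells 8 had at least 30 UMIs, of which 2 were called higher under the KO label, 6 were not called and 0 were lower. Of all genes with that many UMIs in the class, 3.87% were called higher and 4.23% lower. Plppr3, next to Prtn3 on the side away from Elane, had 231 UMIs against 3, a ratio of 3.22 (1.09 to 15.7), and Mks1, near Mpo, 139 against 1, a ratio of 5.82 (1.03 to 231). Ptbp1, Med16 and R3hdm4, around the Prtn3 and Elane pair, had ratios of 0.964, 0.887 and 1.05, and Cfd, directly beside Elane, had 1 UMI against 0. Ms4a6d, close to Ms4a3, was at 340 CPM against 220 CPM, a ratio of 1.54 (1.40 to 1.71). The mast cell and granzyme genes around Ctsg (Mcpt9, Mcpt4, Mcpt8, Gzme, Gzmd and Gzmg) had 0 to 2 UMIs in this class. Over all cells, whose classes differed in size between the labels, more neighbours were called, where 3.17% of all genes were called higher and 25.0% lower. Higher were Epx near Mpo (125 UMIs against 0), Mcpt8 (271 against 41), Ms4a6d (19758 against 6713), Ms4a2 (76 against 28) and Plppr3 (269 against 73). Lower were Ms4a4d (55 against 398) and Oosp1 (4 against 120), both near Ms4a3.

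Over all cells Gfi1b, the paralog of Gfi1, had 116 UMIs in the KO-labelled library (1.23 CPM, 1.01 to 1.47) and 102 in the WT-labelled one (0.752 CPM, 0.613 to 0.913). Gfi1 was at 1.38 CPM (36 UMIs) against 0.179 CPM (8 UMIs) in alveolar macrophage-like cells and had 56 UMIs against 0 in classical monocyte-like cells.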
